A study of Mus musculus with 24 samples.

Results

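The 10 genes described here encode enzymes of serine synthesis and of folate-dependent one-carbon metabolism, namely Phgdh, Psat1, Psph, Shmt1, Shmt2, Gldc, Mthfd2, Mthfd1l, Aldh1l1 and Aldh1l2. They were chosen by name from the pathway and found by Ensembl identifier among the 49671 counted genes of the series, and all 10 had enough counts to be tested, as had 19691 genes in all. RNA-seq libraries came from 6 groups of 4 biological replicates, 24 in all. Neonatal astrocytes (neoAC) were from C57BL/6J pups aged 4 to 8 days and adult astrocytes (AdAC) from C57BL/6J mice aged 100 to 140 days, with 2 mice pooled per isolation. Both were enriched with magnetic beads against the astrocyte surface antigen ACSA-2 and were either frozen at once (direct) or grown for 7 to 10 days in AstroMACS medium (CellC). Pups and adults were dissociated with different kits, and debris and red blood cells were removed from the adult cells only. From pups cerebral tissue without meninges was used, while olfactory bulb and cerebellum were removed for direct isolation of adult cells. Kit, clean-up, dissected tissue and age therefore cannot be told apart. Such removal is not stated for the adult cultures, so tissue may also differ between direct and cultured adult cells. Neural stem cells (NSC) were derived from 1 embryonic stem cell line, GSC-5003 of C57BL/6N origin, and were grown in N2B27 medium with FGF and EGF (20 ng/ml of either) at passages 50 to 60. The stem cell-derived astrocytes, called AGES, were made from these NSCs with 20 ng/ml BMP4 over 3 to 5 days. NSCs were kept on gelatin and AGES on ornithine and laminin, without FGF and EGF, so BMP4, the loss of these growth factors and the coating cannot be told apart. Between the stem cell line and the primary astrocytes, cell origin, strain and culture medium differed together and cannot be told apart.

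Serine is made from the glycolytic intermediate 3-phosphoglycerate by 3 enzymes in turn, PHGDH, PSAT1 and PSPH, and in the brain astrocytes and radial glia are the main cells that express Phgdh. The serine hydroxymethyltransferases SHMT1 in the cytosol and SHMT2 in mitochondria turn serine into glycine and pass its side-chain carbon to tetrahydrofolate, and GLDC is the decarboxylase of the mitochondrial glycine cleavage system. MTHFD2 and MTHFD1L oxidise that carbon in mitochondria and release it as formate, which feeds purine and thymidylate synthesis in the cytosol, and MTHFD2 is known as an enzyme of embryonic and dividing cells. ALDH1L1 in the cytosol and ALDH1L2 in mitochondria oxidise 10-formyltetrahydrofolate to carbon dioxide, and Aldh1l1 is widely used as a marker of astrocytes.

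Phgdh, Mthfd2, Shmt2 and Mthfd1l are shown by the 250 bases before their RefSeq start sites on GRCm38.p6, because the last 3 of these genes had higher pairwise correlations across libraries than any other 3 of the 10, while Phgdh was not positively correlated with them. The sequences run 5′ to 3′ on the coding strand, with matches to the CCAAT box (CCAAT) and the GC box (GGGCGG), on either strand, in capitals.
Phgdh, chr3:98339970-98340219, minus strand: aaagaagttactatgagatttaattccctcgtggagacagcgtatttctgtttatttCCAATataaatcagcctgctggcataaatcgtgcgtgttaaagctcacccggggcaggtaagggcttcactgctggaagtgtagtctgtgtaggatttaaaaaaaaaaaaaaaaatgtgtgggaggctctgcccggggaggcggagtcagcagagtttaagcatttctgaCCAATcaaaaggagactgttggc
Shmt2, chr10:127522445-127522694, minus strand: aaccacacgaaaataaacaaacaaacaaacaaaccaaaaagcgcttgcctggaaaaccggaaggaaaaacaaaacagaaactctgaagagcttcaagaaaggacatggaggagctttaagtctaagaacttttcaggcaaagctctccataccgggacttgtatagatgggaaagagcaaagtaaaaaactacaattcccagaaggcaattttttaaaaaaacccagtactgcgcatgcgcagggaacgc
Mthfd2, chr6:83317605-83317854, minus strand: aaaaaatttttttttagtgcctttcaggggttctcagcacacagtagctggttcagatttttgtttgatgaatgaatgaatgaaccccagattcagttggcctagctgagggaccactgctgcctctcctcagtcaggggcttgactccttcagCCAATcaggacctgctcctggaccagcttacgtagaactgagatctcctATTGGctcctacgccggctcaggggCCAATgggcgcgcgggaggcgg
Mthfd1l, chr10:3972825-3973074, plus strand: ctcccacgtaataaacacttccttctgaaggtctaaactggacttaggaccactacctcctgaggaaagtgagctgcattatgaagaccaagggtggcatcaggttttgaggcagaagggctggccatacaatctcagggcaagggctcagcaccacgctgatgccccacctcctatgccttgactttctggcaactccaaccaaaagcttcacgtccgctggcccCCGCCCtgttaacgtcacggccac
In these 250 bases Phgdh had 2 CCAAT boxes, Mthfd2 had 3, Mthfd1l had 1 GC box and Shmt2 had neither motif. RefSeq windows of 300 bases, running 50 bases past the start site, were found for 9 of the 10 genes, all but Aldh1l2. Of these 9 genes, 7 had a CCAAT box and 6 a GC box in such a window, while 37.41% and 35.66% of all 32851 windows had one. Both motifs were chosen after the windows were seen, so these counts are no sign of enrichment. They also set genes against single windows, since the 9 genes have 10 windows and Psat1 has 2 of them. The core of the C/EBP-ATF response element (TGATGNAA, both strands), which ATF4 can bind, was in 0 of the 9 and in 3.97% of all windows, and the E-box (CACGTG) was in 0 of the 9 and in 7.15% of all windows. At shares this low, 0 of 9 is a common outcome for any 9 genes, so it is no sign that these 2 motifs are lacking. All letter matches are descriptions of the windows and not of bound factors. In no window did a match to one motif overlap a match to another, although 2 GC boxes shared a base in Shmt1.

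Library totals ran from 27904126 to 37997368 counts, and each of the 10 genes had between 30 and 45693 counts in every library. Levels are given as CPM, the counts of a gene relative to the library total in the usual unit, scaled with edgeR's trimmed mean of M-values, as mean ± SD of 4 libraries. In bulk RNA, fewer cells of a type and less RNA per cell cannot be told apart, so marker levels stand beside the results. The summed level of 10 astrocyte markers lay at 17331 to 18073 CPM in AdAC direct, 21556 to 24490 in neoAC direct and 7462 to 8787 in neoAC CellC. It lay at only 915 to 1354 CPM in AdAC CellC, below the 2036 to 2567 of NSC, so the libraries labelled cultured adult astrocytes had few transcripts of these markers. In AGES the same sum was 55549 to 60494 CPM, of which Gfap alone gave 50503 ± 1883. The summed level of 7 oligodendrocyte markers was 22451 to 26113 CPM in AdAC direct and 2613 to 6699 in AdAC CellC, against 316 to 385 in neoAC direct, 240 to 279 in neoAC CellC and at most 37.0 in NSC and AGES. Microglia, endothelial and neuron markers summed to at most 54.9, 239 and 238 CPM in any library. Pericyte and fibroblast markers (5 genes) were highest in AdAC CellC, at 728 to 1030 CPM, with the collagen gene Col1a1 at 813 ± 147. Ependymal markers (4 genes) summed to 1337 to 1698 CPM in neoAC CellC and 1156 to 1326 in AdAC direct, against 132 to 194 in neoAC direct, 221 to 311 in AdAC CellC and at most 84.2 in NSC and AGES. Markers of oligodendrocyte precursors (5 genes) were highest in NSC, at 1799.5 to 2148 CPM, against 262 to 359 in AGES and 239 to 1126 in the primary cells. Neural stem cell markers (6 genes) were highest in neoAC direct, at 6354 to 8160 CPM, and lowest in AdAC direct, at 413 to 492.

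The levels of the 10 genes spanned a wide range between groups, as the plot of levels by library shows. The ratio of the highest to the lowest group mean was 82.0 for Aldh1l1, 49.2 for Aldh1l2, 42.2 for Shmt1, 23.7 for Mthfd1l and 16.9 for Mthfd2. It was smaller for Shmt2 (7.39), Psph (5.78), Gldc (5.64), Psat1 (4.15) and Phgdh (3.89). The median of the log2 ratios was 3.47 over the 10 genes and 1.89 over the 12578 tested genes with a group mean of at least 10 CPM. Scaled per kb of exon, Phgdh was the highest of the 10 in NSC (150 CPM per kb), followed by Psat1 (127), Shmt2 (62.6) and Shmt1 (32.3), with Aldh1l1 at 4.16 and Aldh1l2 at 0.165. In neoAC direct Phgdh (278 CPM per kb) and Aldh1l1 (272) were the highest, and Mthfd2 (1.88), Shmt1 (1.60) and Mthfd1l (1.46) were the lowest.

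**Figure D1:**
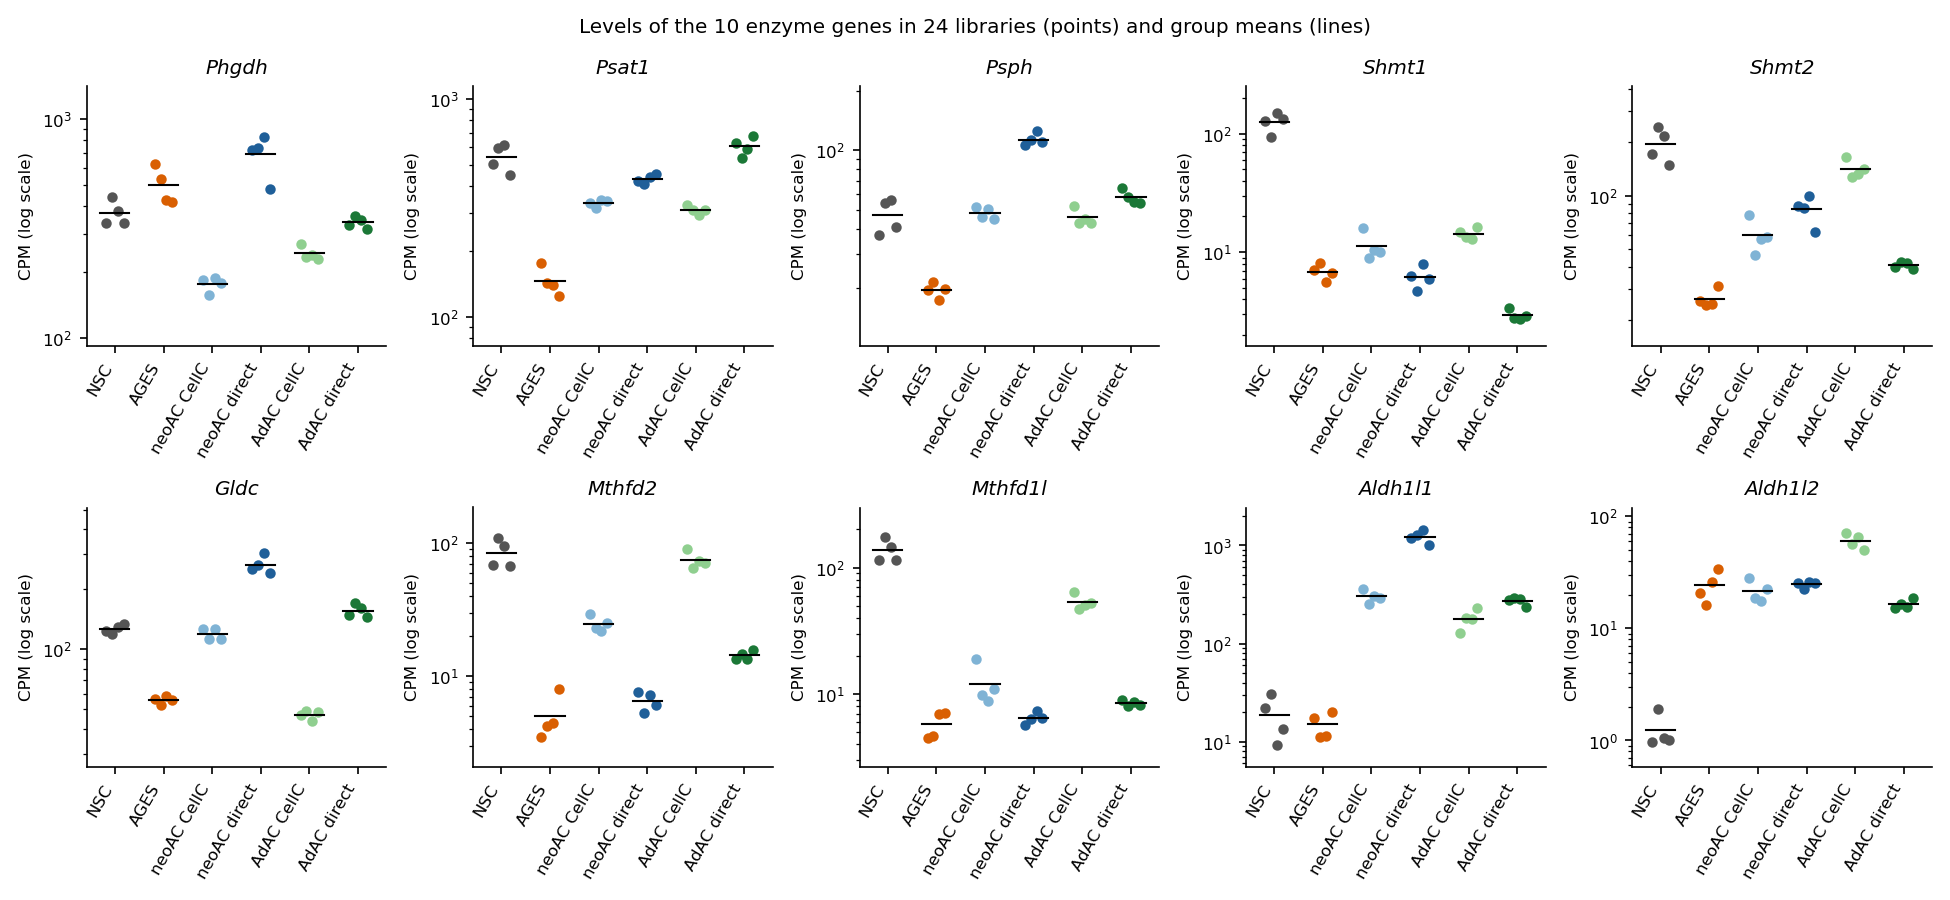
Levels of the 10 genes in each of the 24 libraries, in CPM on a log axis with its own range for each gene. Points are libraries, 4 per group, and lines are group means. NSC stand highest for Shmt1 and Mthfd1l, neoAC direct for Aldh1l1, Gldc and Psph, and AdAC CellC for Aldh1l2.

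The first enzyme of serine synthesis, Phgdh, stood at 717, 740, 830 and 480 CPM in the 4 neoAC direct libraries. Its AGES libraries stood at 624, 534, 429 and 418 CPM and the NSC libraries at 336, 442, 380 and 334. The AGES and NSC values overlapped, and so did those of AGES and neoAC direct. AdAC direct had 328, 360, 348 and 314 CPM, AdAC CellC 269, 235, 241 and 230, and neoAC CellC 185, 157, 189 and 180, so that each cultured group lay below every library of its directly isolated counterpart. In the order of group means NSC and AdAC direct were neighbours that did not pass the test (log2 difference 0.14, 95% interval -0.13 to 0.42).

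Psat1, the aminotransferase of the second step, was highest in AdAC direct, with 629, 535, 589 and 675 CPM, and in NSC, with 505, 598, 615 and 448. Those 2 groups did not pass the test against each other (log2 difference 0.16, 95% interval -0.04 to 0.37). AGES had the lowest values, 177, 143, 140 and 125 CPM, below every library of every other group. The phosphatase gene Psph, of the last step, was also lowest in AGES, at 19.6, 21.4, 17.4 and 19.8 CPM, and highest in neoAC direct, at 106, 112, 125 and 110. In AGES, therefore, Phgdh was at its second-highest group mean (501 ± 97.1 CPM) while Psat1 (146 ± 21.9) and Psph (19.6 ± 1.66) were at their lowest.

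Shmt1, the cytosolic serine hydroxymethyltransferase, had 127, 94.0, 148 and 132 CPM in NSC. Every other library lay between 2.76 CPM, in AdAC direct, and 16.3 CPM, in AdAC CellC. Its mitochondrial counterpart Shmt2 stood at 171, 243, 216 and 149 CPM in NSC and at 166, 127, 132 and 141 in AdAC CellC, and these groups overlapped. It was lowest in AGES, with 25.6, 24.4, 24.5 and 31.0 CPM. The decarboxylase gene Gldc was highest in neoAC direct (252, 265, 303 and 240 CPM) and lowest in AdAC CellC (46.7, 48.9, 43.6 and 48.8 CPM), with AGES just above (56.6, 52.5, 58.5 and 56.1 CPM), and none of these libraries overlapped between the groups.

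Mthfd2, the mitochondrial dehydrogenase and cyclohydrolase, had 69.0, 109, 94.8 and 67.9 CPM in NSC and 90.3, 65.2, 73.7 and 70.9 in AdAC CellC. These 2 groups overlapped and did not pass the test against each other (log2 difference 0.19, 95% interval -0.17 to 0.55). AGES had 3.51, 4.26, 4.45 and 7.97 CPM and neoAC direct 7.61, 5.29, 7.24 and 6.05. Mthfd1l, the mitochondrial formyltetrahydrofolate synthetase, had 115, 175, 144 and 114 CPM in NSC and 63.8, 47.4, 50.6 and 52.6 in AdAC CellC. In AGES, neoAC direct and AdAC direct every Mthfd1l library lay between 4.49 and 9.05 CPM. Both mitochondrial formate enzymes thus had their highest group mean in NSC and the next in cultured adult cells, although for Mthfd2 these 2 groups were not told apart.

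Aldh1l1 separated the primary astrocytes from the stem cell line. Its values were 1199, 1265, 1434 and 1014 CPM in neoAC direct, 364, 255, 303 and 292 in neoAC CellC, 277, 293, 282 and 238 in AdAC direct and 129, 181, 177 and 232 in AdAC CellC. AGES, at 17.3, 11.2, 11.5 and 19.9 CPM, overlapped with NSC, at 22.2, 30.3, 9.30 and 13.3. Aldh1l2 was near 1 CPM in NSC, where the libraries stood at 0.978, 1.91, 1.05 and 1.00, and was highest in AdAC CellC, at 70.6, 56.5, 65.8 and 50.5. AGES (20.9, 16.1, 26.0 and 33.8 CPM), neoAC direct (25.6, 22.3, 25.9 and 25.2 CPM) and neoAC CellC (28.1, 18.7, 17.7 and 22.5 CPM) overlapped, and neighbours among these 3 groups did not pass the test. Over all 10 genes, 17 of the 50 neighbouring pairs in the order of group means did not pass it.

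AGES were compared first with the NSCs from which they were made. Mthfd1l was 23.6-fold lower in AGES than in NSC (95% interval 17.4 to 32.0), Shmt1 18.2-fold lower (14.1 to 23.5), Mthfd2 16.8-fold lower (12.5 to 22.6) and Shmt2 7.39-fold lower (5.84 to 9.35). Psat1 was 3.71-fold, Psph 2.41-fold and Gldc 2.27-fold lower. Aldh1l2 went the other way and was 19.4-fold higher (13.9 to 27.1), and Phgdh was 1.34-fold higher (1.11 to 1.63). In edgeR's two-sided quasi-likelihood test with Benjamini-Hochberg adjustment over the tested genes, at a threshold of 0.05, 2 of the 10 genes rose and 7 fell, while 65.7% of all tested genes passed. By direction 31.7% of tested genes rose and 34.0% fell. With a change of over 2-fold required as well, 1 rose and 7 fell, against 38.0% of tested genes passing (19.5% higher and 18.4% lower). The log2 fold change was -4.56 ± 0.21 (SE) for Mthfd1l, -4.19 ± 0.18 for Shmt1, -4.07 ± 0.21 for Mthfd2 and 4.28 ± 0.23 for Aldh1l2. Apart from Phgdh the genes that passed had an edgeR adjusted p of at most 1.15e-10 (Psph). The median log2 fold change was -1.58 over the 10 genes and 0 over all tested genes. The rise of Phgdh (edgeR adjusted p = 0.0073) was no longer past the threshold without AGES replicate 1 (edgeR adjusted p = 0.054). Aldh1l1 had a log2 fold change of -0.33 ± 0.26 with an edgeR adjusted p of 0.284, which became 0.0451, with -0.55, without NSC replicate 3.

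Most tested folate cycle and purine synthesis genes were lower in AGES as well. Of all tested genes 31.7% rose and 34.0% fell in this contrast, the shares to set beside each list count below. Tyms, thymidylate synthase, had a log2 fold change of -4.35 ± 0.18 against NSC, and all 6 genes of de novo purine synthesis fell, with a median of -1.75. Of 12 tested folate cycle enzymes outside the 10 genes, 3 rose and 8 fell. Mthfd1, the cytosolic trifunctional enzyme, fell by 1.22 on the log2 scale, and Mthfd2l, the close relative of Mthfd2 that adult tissues use, fell by 0.32. Of 5 folate transporter genes 2 rose and 2 fell, near the shares of all tested genes, and Slc46a1 did not pass. The folate receptor genes Folr1 and Folr2 rose by 6.91 and 3.53. Both had 3 counts or fewer in every NSC library, so the size of their rise is uncertain. Slc25a32, the mitochondrial folate carrier, fell by 1.21 and Slc19a1, the reduced folate carrier, fell by 1.13. The 5 transporter genes summed to 52.1 to 60.8 CPM in NSC and 38.0 to 45.6 in AGES. Srr, the serine racemase that makes D-serine, rose by 2.04. Over the same contrast the summed level of 10 proliferation genes was 4210 to 4547 CPM in NSC and 83.2 to 88.9 in AGES, and Mki67 was at 958 ± 81.6 and 0.981 ± 0.268 CPM. Oligodendrocyte precursor markers were lower in AGES for 3 of 5 genes and astrocyte markers higher for 8 of 10. Of 21 genes in a list of Atf4 and its targets outside this pathway, 3 rose and 15 fell. The part of proliferation, of these markers or of the Atf4 list in the enzyme levels was not tested.

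AGES were then compared with the 2 primary cultures that they may stand in for; all 3 comparisons of AGES share the same 4 AGES libraries, so they are not independent. Against AdAC CellC, Mthfd2 was 14.8-fold lower in AGES (95% interval 11.1 to 19.9) and Mthfd1l 9.23-fold lower (6.90 to 12.3), and Aldh1l1 had a log2 fold change of -3.59 ± 0.28. Shmt2 was 5.36-fold lower, Aldh1l2 2.52-fold, Psph 2.34-fold, Psat1 2.12-fold and Shmt1 2.08-fold. Phgdh was 2.06-fold higher (1.69 to 2.50). In all 2 of the 10 genes were higher and 8 lower, against 76.2% of tested genes passing (31.0% higher and 45.2% lower). Over 2-fold, 1 was higher and 8 were lower, against 46.7% (15.5% and 31.1%). The median log2 fold change was -1.28 over the 10 genes and -0.23 over all tested genes. Apart from Gldc, edgeR adjusted p was at most 3.58e-06 (Shmt1). Gldc, at 0.25 ± 0.08 with an edgeR adjusted p of 0.0044, was not past the threshold with scaling by library size only (edgeR adjusted p = 0.736) or when every library had to have 10 counts or more (edgeR adjusted p = 0.066).

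Against neoAC CellC, Aldh1l1 was 20.3-fold lower in AGES (95% interval 13.4 to 30.7), Mthfd2 4.90-fold lower (3.69 to 6.50) and Psph 2.46-fold lower (2.11 to 2.88). Psat1, Shmt2, Gldc and Mthfd1l were between 2.08-fold and 2.28-fold lower, and Shmt1 1.64-fold lower. Phgdh was 2.82-fold higher (2.32 to 3.43), and Aldh1l2 had a log2 fold change of 0.15 ± 0.18 (edgeR adjusted p = 0.45). For the genes that passed, edgeR adjusted p was at most 0.000523 (Shmt1). In all 1 of the 10 genes was higher and 8 were lower, against 74.6% of tested genes passing (34.1% higher and 40.5% lower), and over 2-fold it was 1 and 7, against 43.6% (13.8% and 29.8%). The median was -1.14 over the 10 genes and -0.07 over all tested genes. Proliferation genes summed to 990 to 1406 CPM in neoAC CellC and 1206 to 1431 in AdAC CellC, against 83.2 to 88.9 in AGES. All 4 ependymal and all 5 pericyte and fibroblast markers were lower in AGES than in either culture, and oligodendrocyte markers were lower for 7 of 7 genes against AdAC CellC and 6 of 7 against neoAC CellC. Astrocyte markers were higher for 9 and lower for 1 of 10 genes against AdAC CellC, and higher for 3 and lower for 3 against neoAC CellC. Of the 21 genes of the Atf4 list, 1 was higher and 18 were lower against AdAC CellC, and 5 were higher and 10 lower against neoAC CellC. The part of any of these lists in the differences was not tested.

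**Figure D2:**
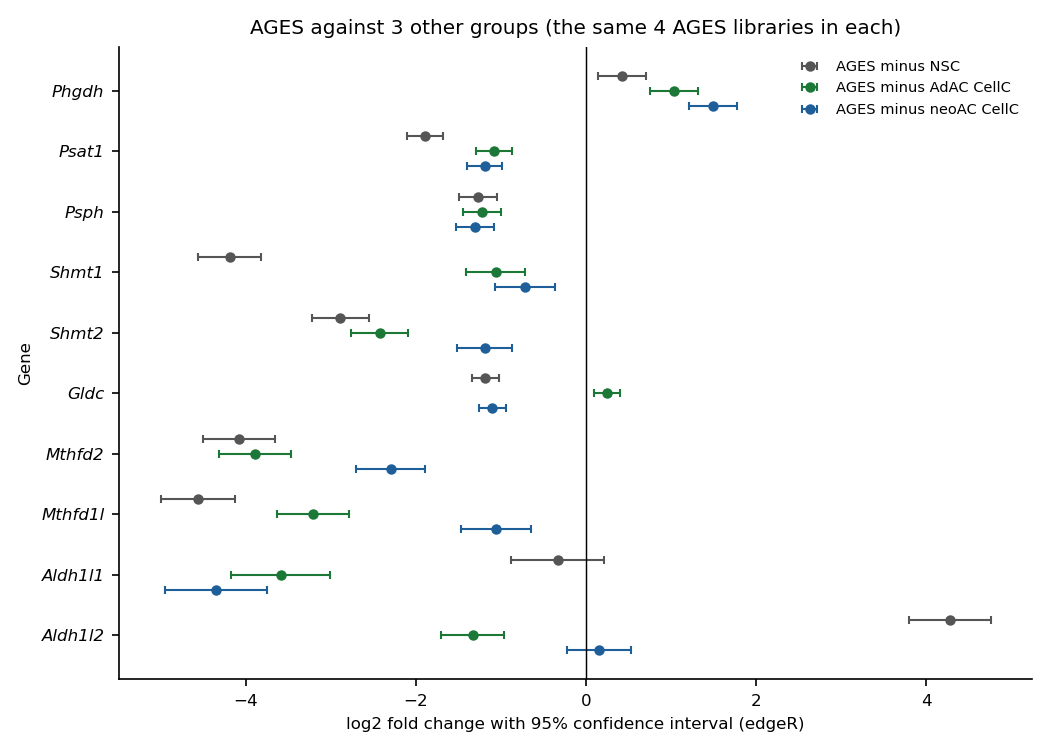
Log2 fold change of each gene in AGES against NSC (grey), AdAC CellC (green) and neoAC CellC (blue), with 95% confidence intervals from edgeR and 4 libraries per group. Phgdh lies to the right of 0 and Psat1, Psph, Shmt1, Shmt2, Mthfd2 and Mthfd1l to the left in all 3 comparisons, which share the AGES libraries. Aldh1l2 lies at 4.28 against NSC and at -1.33 against AdAC CellC.

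Between cultured and directly isolated adult astrocytes as many of the 10 genes were higher as lower. Of the 10 genes, Mthfd1l, Mthfd2, Aldh1l2 and both serine hydroxymethyltransferase genes were higher in AdAC CellC than in AdAC direct. Mthfd1l was 6.29-fold higher (95% interval 4.76 to 8.33), Mthfd2 5.21-fold (3.99 to 6.81), Shmt1 4.84-fold (3.73 to 6.27), Aldh1l2 3.69-fold (2.83 to 4.81) and Shmt2 3.47-fold (2.77 to 4.35). Gldc was 3.33-fold lower (2.98 to 3.72), Psat1 1.96-fold, Aldh1l1 1.52-fold, Phgdh 1.38-fold and Psph 1.26-fold lower, so that all 3 genes of serine synthesis fell. By edgeR's test 5 genes rose and 5 fell, against 78.0% of tested genes passing (38.8% higher and 39.2% lower). Over 2-fold, 5 rose and 1 fell, against 48.7% (23.3% and 25.4%). The median log2 fold change was 0.73 over the 10 genes and 0 over all tested genes. The next highest edgeR adjusted p after that of Aldh1l1 was 0.0057 (Psph). Aldh1l1 (edgeR adjusted p = 0.0323) passed narrowly and lost the call when scaling was by library size only (edgeR adjusted p = 0.0535) and without any 1 of 6 libraries, namely replicates 1 to 3 of either group (edgeR adjusted p from 0.0545 to 0.123).

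Beside these changes, the summed oligodendrocyte and astrocyte markers of AdAC CellC were below those of AdAC direct and its proliferation genes were above, at 1206 to 1431 CPM against 77.1 to 90.4. All 4 ependymal markers fell too, from a sum of 1156 to 1326 CPM to one of 221 to 311, with a median log2 fold change of -3.58, and of 5 pericyte and fibroblast markers 3 rose and 2 fell. The part of this shift in cell markers in the enzyme levels was not tested. Tyms rose by 3.56 on the log2 scale, and of 12 tested folate cycle enzymes 8 rose and 3 fell. Of all tested genes 38.8% rose and 39.2% fell in this contrast. Mthfd2l did not pass, with a log2 fold change of 0.13 ± 0.10 (edgeR adjusted p = 0.255). Asns, the asparagine synthetase gene and a known target of ATF4, rose by 5.60, and Atf4 itself, the transcription factor of amino acid shortage, by 1.44. Of the 21 genes in the list of Atf4 and its targets outside this pathway, 19 rose and 1 fell (median 2.30). Of 9 carriers of serine and glycine, 7 fell and 2 rose. Slc7a10, the exchanger of D-serine and small neutral amino acids, was at 507 ± 49.5 CPM in AdAC direct and 1.05 ± 0.322 in AdAC CellC, and Slc6a9, the glycine transporter GlyT1, at 472 ± 20.5 and 28.1 ± 3.91. Slc1a4, the neutral amino acid transporter ASCT1, fell by 1.74 on the log2 scale. Among the partners of Gldc in glycine cleavage, Amt fell by 1.59, whereas Gcsh rose by 0.75 and Dld by 0.32.

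In neonatal astrocytes more of these genes were lower than higher in culture. Aldh1l1 was 4.05-fold lower in neoAC CellC than in neoAC direct (95% interval 2.80 to 5.85), Phgdh 3.89-fold (3.19 to 4.75), Psph 2.35-fold (2.02 to 2.73) and Gldc 2.21-fold (1.99 to 2.47). Shmt2 was 1.40-fold and Psat1 1.29-fold lower. Mthfd2 was 3.80-fold higher, with a log2 fold change of 1.93 ± 0.19, Mthfd1l 1.86-fold higher (1.41 to 2.47) and Shmt1 1.82-fold (1.43 to 2.32). Aldh1l2 had a log2 fold change of -0.19 ± 0.18 (edgeR adjusted p = 0.378). In all 3 genes rose and 6 fell, against 65.7% of tested genes passing (34.4% higher and 31.3% lower), and over 2-fold 1 rose and 4 fell, against 32.6% (19.3% and 13.3%). The median was -0.42 over the 10 genes and 0.04 over all tested genes. Scaling by library size only, which moved the median of all tested genes to 0.27, left Psat1 (edgeR adjusted p = 0.221) and Shmt2 (edgeR adjusted p = 0.13) short of the threshold. Proliferation genes summed to 448 to 696 CPM in neoAC direct and 990 to 1406 in neoAC CellC. All 4 ependymal markers rose, from a sum of 132 to 194 CPM to one of 1337 to 1698 (median log2 fold change 2.67), and all 4 endothelial markers fell, from 57.8 to 239 CPM to 3.66 to 5.95. Of 10 astrocyte markers 1 rose and 8 fell. The part of these lists in the enzyme levels was not tested. Of the ATF4 list 12 genes rose and 6 fell, with Asns up by 3.19 and Atf4 itself down by 2.26 on the log2 scale. On the log2 scale Slc7a10 fell by 5.28, Slc1a4 fell by 3.07 and Slc6a9 fell by 2.23.

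Whether the change in culture differed by age was tested as an interaction, the log2 fold change of culture in adult cells minus that in neonatal cells. It was 2.28 ± 0.22 for Shmt2, 2.07 ± 0.26 for Aldh1l2, 1.76 ± 0.27 for Mthfd1l, 1.49 ± 0.19 for Phgdh, 1.42 ± 0.35 for Aldh1l1 and 1.41 ± 0.25 for Shmt1. Psph had 0.90 ± 0.15, Psat1 -0.61 ± 0.14 and Gldc -0.59 ± 0.11. For 7 genes the adult value was the higher of the pair and for 2 the lower by edgeR's test, against 68.6% of tested genes passing (35.4% and 33.2%), and over 2-fold it was 6 and 0, against 45.1% (20.7% and 24.3%). The median was 1.41 over the 10 genes and 0.05 over all tested genes. For the genes that passed, edgeR adjusted p was at most 0.0012 (Aldh1l1). By the same test all 10 proliferation genes had the higher adult value, and all 4 ependymal and all 7 oligodendrocyte markers the lower, with the ependymal sum falling in adult and rising in neonatal culture. Of the 21 genes of the Atf4 list 20 had the higher adult value and 0 the lower. All 4 endothelial and all 6 neural stem cell markers had the higher value too, while 9 of 10 astrocyte markers had the lower. The part of these lists in the interaction was not tested. Mthfd2, which rose in culture at both ages, had an interaction of 0.46 ± 0.26 (edgeR adjusted p = 0.125). Shmt2 was the gene whose passed changes had opposite directions at the 2 ages: it rose by 1.80 in adult cells and fell by 0.48 in neonatal cells on the log2 scale, although the neonatal fall did not pass with scaling by library size only.

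**Figure D3:**
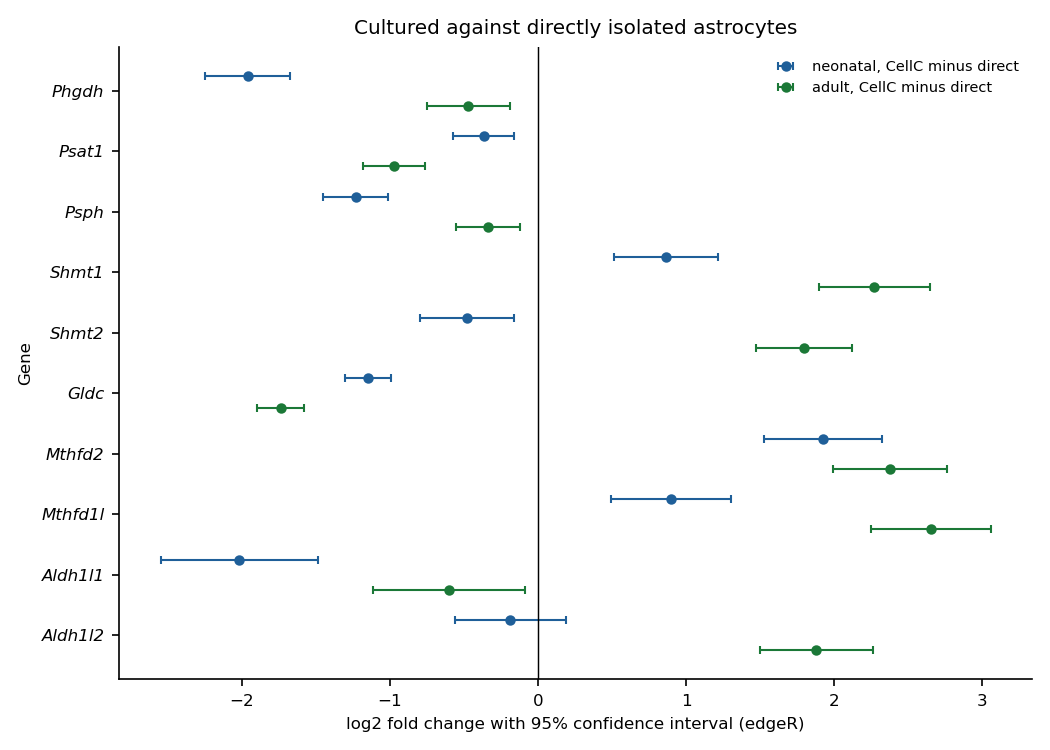
Log2 fold change of each gene in cultured against directly isolated cells, in neonatal (blue) and adult (green) astrocytes, with 95% confidence intervals from edgeR and 4 libraries per group. Phgdh, Psat1, Psph, Gldc and Aldh1l1 lie to the left of 0 at both ages and Shmt1, Mthfd2 and Mthfd1l to the right, and Shmt2 lies at 1.80 in adult and -0.48 in neonatal cells.

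The ages were also compared within each preparation. Among directly isolated cells, Aldh1l1 was 4.50-fold higher in neonatal than adult astrocytes (95% interval 3.11 to 6.53), Shmt1 2.09-fold, Shmt2 2.06-fold (1.65 to 2.57), Phgdh 2.05-fold (1.69 to 2.49) and Psph 1.96-fold (1.68 to 2.28). Gldc was 1.69-fold higher and Aldh1l2 had a log2 fold change of 0.58 ± 0.18, whereas Mthfd2 was 2.20-fold (1.67 to 2.90) and Psat1 1.41-fold lower. In all 7 genes were higher in neoAC direct and 2 lower, against 71.4% of tested genes passing (35.0% higher and 36.4% lower), and over 2-fold it was 4 and 1, against 39.1% (16.5% and 22.6%). The median was 0.87 over the 10 genes and 0 over all tested genes. Mthfd1l had a log2 fold change of -0.39 ± 0.20 (edgeR adjusted p = 0.0825). Oligodendrocyte markers were far higher in AdAC direct (22451 to 26113 CPM) than in neoAC direct (316 to 385 CPM), and proliferation genes were lower (77.1 to 90.4 against 448 to 696 CPM). All 4 ependymal markers were lower in neoAC direct (132 to 194 against 1156 to 1326 CPM), and all 6 neural stem cell markers were higher (6354 to 8160 against 413 to 492 CPM). Of the 21 genes of the Atf4 list 16 were higher in neoAC direct and 1 was lower. The part of any of these lists in these differences was not tested. Among the glycine cleavage partners Gcsh was higher in neoAC direct by 2.11, Amt by 0.60 and Dld by 0.57 on the log2 scale.

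Among cultured cells the age difference took another form. Mthfd1l was 4.43-fold (95% interval 3.38 to 5.82), Mthfd2 3.02-fold (2.34 to 3.91), Aldh1l2 2.80-fold (2.16 to 3.63) and Shmt2 2.36-fold (1.89 to 2.94) lower in neoAC CellC than in AdAC CellC, and Phgdh 1.37-fold. Gldc was 2.55-fold (2.29 to 2.84) and Aldh1l1 1.69-fold (1.18 to 2.42) higher. In all 2 genes were higher and 5 lower, against 63.8% of tested genes passing (28.5% higher and 35.2% lower), and over 2-fold it was 1 and 4, against 29.8% (15.5% and 14.3%). The median was -0.40 over the 10 genes and -0.08 over all tested genes. Psat1 (0.11 ± 0.10), Psph (0.08 ± 0.11) and Shmt1 (-0.35 ± 0.16) did not pass, with edgeR adjusted p of 0.359, 0.551 and 0.0672. Without neoAC CellC replicate 1, which had the highest Shmt1 of its group (15.9 CPM), the Shmt1 log2 fold change was -0.55 (edgeR adjusted p = 0.0029). Of 10 proliferation genes 1 was higher and 4 were lower in neoAC CellC, with sums of 990 to 1406 CPM against 1206 to 1431. All 7 oligodendrocyte markers were lower (240 to 279 against 2613 to 6699 CPM), while all 10 astrocyte markers (7462 to 8787 against 915 to 1354 CPM) and all 4 ependymal markers (1337 to 1698 against 221 to 311 CPM) were higher. The Atf4 list had 0 genes higher and 19 lower, with Asns at 36.7 ± 6.10 CPM against 118 ± 23.7. The part of any of these lists in the enzyme levels was not tested.

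Cells carry each of these 2 reactions in the cytosol and in mitochondria, so the ratio of the mitochondrial to the cytosolic gene was computed within each library from levels per kb. The log2 ratio of Shmt2 to Shmt1 was 0.95 ± 0.52 in NSC, 2.26 ± 0.29 in AGES and 2.74 ± 0.10 in neoAC CellC. It was 3.62 ± 0.17 in AdAC CellC, 4.07 ± 0.32 in neoAC direct and 4.10 ± 0.17 in AdAC direct. Shmt2 was thus the higher of the pair in all groups, least so in NSC. The log2 ratio of Aldh1l2 to Aldh1l1 was -6.36 ± 0.23 in neoAC direct, -4.78 ± 0.25 in AdAC direct, -4.57 ± 0.57 in NSC and -4.55 ± 0.19 in neoAC CellC. It was -2.28 ± 0.55 in AdAC CellC and -0.05 ± 0.38 in AGES, where the libraries had -0.46, -0.20, 0.44 and 0.03. AGES was the group in which the mitochondrial gene reached the level of the cytosolic one. In 14 exact two-sided permutation tests of 4 libraries against 4, 13 reached p = 0.0286, the smallest that design allows (adjusted p = 0.0308), with no overlap between the groups. The exception was Shmt2 to Shmt1 between neoAC direct and AdAC direct, with a difference of -0.03 (exact permutation p = 0.886).

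**Figure D4:**
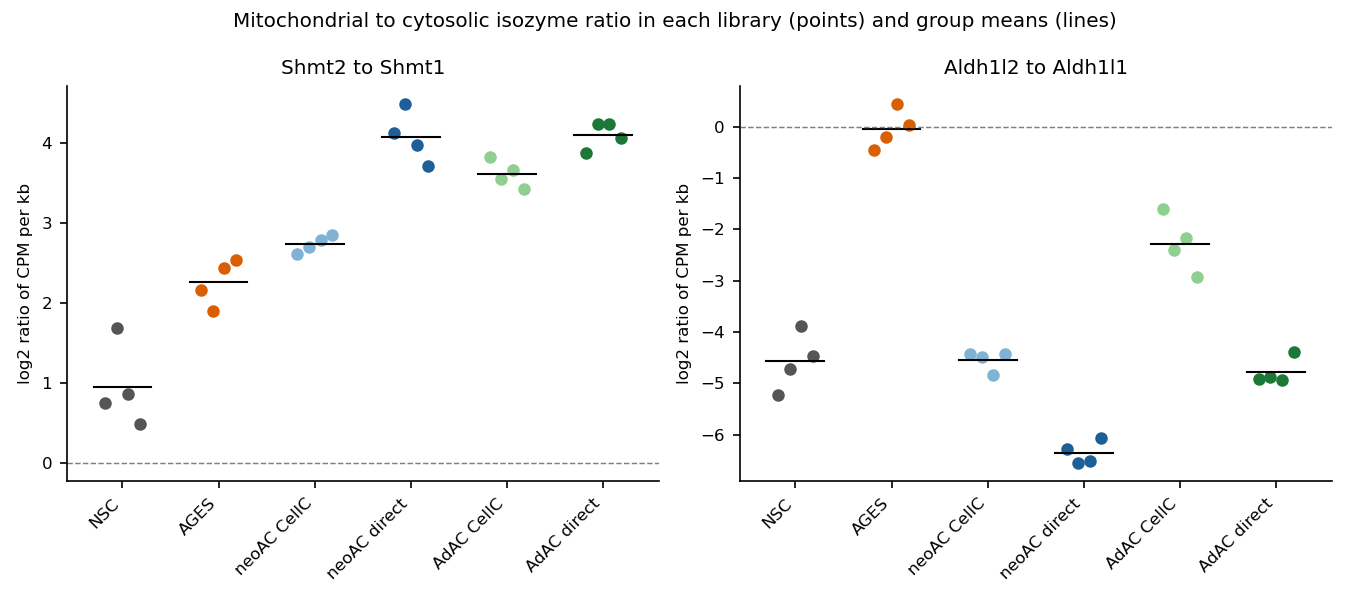
Log2 ratio of Shmt2 to Shmt1 (left) and of Aldh1l2 to Aldh1l1 (right) from CPM per kb of exon, in each library (points) with group means (lines), and the dashed line at 0 marks equal levels. NSC lie lowest on the left at a mean of 0.95, and AGES lie at -0.05 on the right while every other group lies at -2.28 or below.

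Likeness across the 24 libraries was described with Pearson's r of log2 CPM, which has no test here because the libraries form 6 clusters. Mthfd2 and Mthfd1l had r = 0.929, Shmt1 and Mthfd1l 0.87, Shmt2 and Mthfd1l 0.868 and Shmt2 and Mthfd2 0.818. Along the serine branch Psat1 and Psph had r = 0.725, but Phgdh and Psat1 had -0.047. Phgdh and Psat1 were thus not correlated over all 24 libraries, although both were lower in culture at both ages. In AGES Phgdh was at its second-highest group mean and Psat1 at its lowest. Aldh1l1 was most like Psph (0.805) among the 10 genes. Among all tested genes those with the highest r were Parp1 for Shmt1 (0.991), Pa2g4 for Mthfd1l (0.985), Snrnp40 for Shmt2 (0.983), Cdr2 for Mthfd2 (0.974) and Plppr5 for Aldh1l1 (0.986). For the others they were Hdac6 for Phgdh (0.928), Gdpd1 for Psat1 (0.971), Gpr3 for Psph (0.961), Tmem44 for Gldc (0.977) and Gabarap for Aldh1l2 (0.976).

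By the levels of single genes, the 4 libraries of one group lay wholly above or below those of the other for 10 of the 10 genes in AdAC culture (76.3% of tested genes), 8 in neoAC culture (58.0%) and 8 between AGES and NSC (58.3%). For AGES they did so for 10 genes against AdAC CellC (73.1%) and 9 against neoAC CellC (69.6%). They did so for 7 between the cultures of the 2 ages (62.2%) and for 10 between directly isolated cells of the 2 ages (64.9%).

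On GRCm38, with Gencode vM21, Phgdh lies at chr3:98313170-98339990, Psat1 at chr19:15904678-15947337, Psph at chr5:129765558-129787449, Shmt1 at chr11:60788104-60811718 and Shmt2 at chr10:127517123-127522444. Gldc lies at chr19:30098447-30175429, Mthfd2 at chr6:83305691-83325908, Mthfd1l at chr10:3973118-4167081, Aldh1l1 at chr6:90486427-90600203 and Aldh1l2 at chr10:83487450-83534140. All 10 are protein-coding genes. Some levels are uncertain because reads can be shared. Phgdh (Ensembl ENSMUSG00000053398, chromosome 3) has 19 copies in the annotation, of 90.4% to 98.7% identity over 18.8% to 85.6% of its transcript, of which 14 were counted, with a count of 4.07% of that of Phgdh. The exons of Aldh1l2 share 1056 bases, 14.07% of their length, with D10Wsu102e on the opposite strand, and the use of strand in counting is not stated. D10Wsu102e was at 85.6 ± 10.1 CPM in NSC, its highest group, where Aldh1l2 was at 1.24 ± 0.452. Psph shares 452 exon bases (10.44%) with Cct6a and Shmt1 184 (4.74%) with Smcr8, both on the opposite strand. Cct6a was at 386 ± 51.1 CPM in NSC, its highest group, and 123 ± 5.73 in AGES, where Psph was at 47.1 ± 9.19 and 19.6 ± 1.66. In neoAC direct, the highest group of Psph (113 ± 8.12 CPM), Cct6a was at 149 ± 14.4. The part of shared reads in the Psph levels was not tested. Smcr8 lay between 29.4 and 62.1 CPM in the group means while Shmt1 lay between 2.97 and 125.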

How the data were processed

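Stranded libraries of polyadenylated RNA were sequenced in paired-end mode. Per the study's methods, reads were aligned to GRCm38 with STAR 2.7.3a, keeping multiple alignments, and counted on exons with featureCounts and Gencode vM12. The authors deposited raw counts per gene, without normalization or filter. The featureCounts options printed in the methods name exons and the gene identifier, and no strand or pair setting is among them. Whether strand or pairs were used in counting is not said outright in the sources used here. Gene names, exon lengths and overlaps came from Gencode vM21 on GRCm38, to which 99.48% of the counted genes (99.983% of all counts) were matched through their identifiers.

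Counts were kept by filterByExpr, scaled by TMM and fitted in R 4.3.3 with edgeR 4.0.16 (robust quasi-likelihood, 1 fit of the 24 libraries, Benjamini-Hochberg over 19691 genes, threshold 0.05). DESeq2 1.42.0 was an alternative, and both were tested on simulated data. The standard error was taken as the absolute log2 fold change over the square root of F. At these depths 3 counts are 0.0786 to 0.117 CPM, which covers counting error only. Replicates were separate isolations (primary cells) or cultures from other passages (NSC and AGES). The 36 pairs of replicates differed by more than counting noise (mean chi-square per gene of at least 6.02). Isozyme ratios were compared with exact two-sided permutation tests, adjusted over 14 tests.

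The 10 genes, gene lists and tests were chosen with earlier results of these data known. Named are the 10 genes, Mthfd1, Mthfd2l, Tyms, the 5 folate transporter genes, Amt, Gcsh, Dld, Srr, Slc1a4, Slc7a10, Slc6a9, Atf4, Asns, Mki67, defining markers and the genes most alike. Cbs and the genes whose exons overlap those of the 10 are named as well. A few genes of these lists are not reported here. The CCAAT and GC box motifs were added after the windows were seen. Alternatives were other scalings, other filters, DESeq2, fits of only the groups compared, a replicate block in the fit of all libraries, and leaving out each library.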

Additional observations from a re-analysis of the deposited data

Results flagged for a closer look

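A library stood apart from the other 3 of its group in 2 of 60 gene and group combinations. Chance flags about 1 in 20 such groups. In NSC, Aldh1l2 was at 1.91 CPM in replicate 2 against 0.978 to 1.05 in the others, and on the log2 scale the gap was 0.895 of the range, above Dixon's 95% critical value for 4 samples. In neoAC direct, Aldh1l2 was at 22.3 CPM in replicate 2 against 25.2 to 25.9, with a gap of 0.832 of the range.

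The effect of culture differed between adult and neonatal astrocytes for 9 of the 10 genes by edgeR's test of the interaction. The log2 differences, adult minus neonatal, were 2.28 (Shmt2), 2.07 (Aldh1l2), 1.76 (Mthfd1l), 1.49 (Phgdh), 1.42 (Aldh1l1), 1.41 (Shmt1), 0.90 (Psph), -0.61 (Psat1) and -0.59 (Gldc), while 68.6% of all tested genes passed the same test.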

How the results depend on the processing

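In every alternative the number of the 10 genes that passed stayed within 1.5 times the value given. When every library had to have 10 counts or more, fewer genes were tested, and the genes called numbered 9816 (AdAC culture), 8554 (neoAC culture), 9374 (AGES and AdAC CellC), 8766 (AGES and neoAC CellC), 8068 (cultured cells by age), 9181 (direct cells by age) and 8723 (interaction). The sign of Aldh1l2, which passed in neither comparison, turned to 0.042 in neoAC culture with scaling by library size only. Between AGES and neoAC CellC it turned to -0.15 with that scaling, to -0.046 with the stricter filter and to -0.053 without AGES replicate 4, where leaving out 1 library gave values up to 0.31. The cause was not tested. Scaling by library size only moved the median of all tested genes to -0.45 (AGES and AdAC CellC) and -0.37 (AGES and neoAC CellC). Fits of only the groups compared brought Psat1 (cultured cells by age, 0.20), Mthfd1l (direct cells by age, -0.36) and Mthfd2 (interaction, 0.46) past the threshold, and library size only did so for Mthfd1l (-0.46). Replicate numbers did not pair the samples (correlations of deviations from -0.095 to 0.106, with 1 pair over 0.1), and with a replicate block Shmt1 passed between the cultures (edgeR adjusted p = 0.0438) and no other call changed. Differences in isozyme ratio between groups moved by less than 1 SD when 1 library was left out. With 3 libraries against 4 their smallest p in the permutation test is 0.0571. With transcript length in place of exon length, or with a small count added, these differences kept their sign and call. Depth limits Aldh1l2 in NSC most, with 30 to 63 counts per library.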

Other observations

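Genes listed for the use or supply of the products of these enzymes are given by their counts beside the share of all tested genes. In the methionine cycle and transsulfuration, 6 of 9 tested genes fell and 1 rose in cultured against direct adult astrocytes by edgeR's test, while 78.0% of all tested genes passed, and 4 fell and 2 rose in neonatal cells, where 65.7% passed. By direction, 39.2% of all tested genes fell and 38.8% rose in adult culture, and 31.3% fell and 34.4% rose in neonatal culture. Cbs, cystathionine beta-synthase, which joins serine to homocysteine, was named after its values were seen. It stood at 423 ± 52.6 CPM in neoAC direct and 330 ± 33.3 in AdAC direct, against 33.8 ± 11.0 in neoAC CellC, 23.0 ± 4.99 in AdAC CellC, 16.9 ± 3.82 in NSC and 10.1 ± 2.52 in AGES. Among carriers of serine and glycine, 7 of 9 fell and 2 rose in cultured adult cells, and 6 fell and 3 rose in cultured neonatal cells. The shares of all tested genes are the same 78.0% and 65.7%, with the same shares by direction. Of 12 genes listed for serine and glycine use, not all of them established users, 9 were lower in neoAC direct than in AdAC direct. Srr was the 1 that was higher, at 93.8 ± 7.20 against 44.9 ± 3.74 CPM, while 71.4% of all tested genes passed (35.0% higher and 36.4% lower). Oligodendrocyte markers stood at 316 to 385 CPM in neoAC direct and 22451 to 26113 in AdAC direct, and their part in this difference was not tested.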
